A study of Mus musculus with 9 samples.

Results

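Most of the measured genes for the cornified layer of stratified epithelium were lower in mandibles of mice labelled FcgRIIB-/- than in WT mandibles, while the genes for trichohyalin and for the membrane transglutaminase were not. The genes described are the late cornified envelope genes (symbols beginning with Lce and a digit), the small proline-rich genes (Sprr and a digit) and 18 named genes, namely Flg, Flg2, Lor, Ivl, Crct1, Hrnr, Rptn, Tchh, Tchhl1, Cdsn, Klk5, Klk7, Tgm1, Tgm3, Casp14, Sbsn, Krtdap and Lypd3. They were taken by symbol and make up 54 of the 27179 genes in the count table. Poly(A) RNA of whole mandibles, pulverized with the teeth, was sequenced from male C57BL/6 mice at 6 months of age. The groups were 5 WT mice and 4 mice labelled FcgRIIB-/-, that is, as lacking the inhibitory Fc gamma receptor IIB, which serve as a model of lupus on the same C57BL/6 background. The labels name no treatment in either group, and each library came from a separate mouse.

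The cornified envelope is a sheath of cross-linked protein that replaces the plasma membrane of a keratinocyte in its last stage of life. Loricrin, involucrin, the small proline-rich proteins and the late cornified envelope proteins are its building blocks, transglutaminases join them, and kallikrein proteases later loosen the dead cells so that they are shed. Most of the genes for the building blocks lie side by side in the epidermal differentiation complex, and they are used in skin and in the keratinized lining of the mouth, such as gingiva, hard palate and tongue.

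The libraries held between 21453880 and 28991631 counts each, so that 1 count was worth between 0.0350 and 0.0507 CPM. CPM is the count scaled to library size after TMM normalization. The targeted gene was examined before the others. Fcgr2b had 20.9, 38.3, 17, 23.1 and 20.7 CPM in WT replicates 1 to 5 and 26.5, 26, 26.6 and 32.1 CPM in replicates 1 to 4 labelled FcgRIIB-/-, a log2 fold change of 0.21 (SE 0.20, adjusted p = 0.442, edgeR's quasi-likelihood test with Benjamini-Hochberg adjustment). A lower count of the targeted gene was thus not found, a gene count does not tell exons apart, and all directions given are between libraries by their labels. As a check of the tissue, Amelx, the main enamel matrix gene of teeth, had between 3581 and 25171 CPM in every mouse.

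Of the 54 genes, 53 had at least 1 count somewhere and 46 had enough counts to be tested. In edgeR's quasi-likelihood test with Benjamini-Hochberg adjustment over all 16329 tested genes, 42 of these 46 were lower in mice labelled FcgRIIB-/- (19.3% of all tested genes were lower), 2 were higher (14% of all tested genes) and 2 did not pass. The median log2 fold change of the tested genes of this set was -5.86, against 0.0055 over all tested genes. These shares need care, because 20 of the 46 genes reached the count filter through the WT libraries alone and could hardly have passed it without a difference. Among the 19 genes whose 4 FcgRIIB-/- libraries all lay over the filter, at 0.397 CPM, 15 were lower, 2 were higher and 2 did not pass. The share over all genes chosen in this way was not computed, so these counts have no background beside them. A fall to a log2 fold change of -3 or below was called for 32 of the 46 genes and for 1.48% of all tested genes. These 32 include all 20 genes that reached the count filter through the WT libraries alone, so the same care applies to this share.

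One WT mouse, replicate 5, stood apart. It had the highest WT level in 39 of the 46 tested genes (27.0% of all tested genes), and WT replicate 2 had the lowest WT level in 39 (25.7% of all tested genes). Without WT replicate 5, 45 of the genes could be tested, of which 41 were lower (15.9% of all genes tested then), 2 were higher (13.3%) and 2 did not pass, with a median log2 fold change of -5.34. The gene no longer tested was Sprr2i, and no gene changed its call otherwise. Of the 46 tested genes, 42 were lower and 2 higher without overlap of the groups (17.5% and 12.1% of all tested genes). The same held without that mouse (19.0% and 13.1%). These are the genes already called from the same values, so the lack of overlap is not separate support.

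The summed level of all 54 genes was 1987, 1104, 2376, 1727 and 5577 CPM in WT replicates 1 to 5 and 271, 272, 271 and 281 CPM in replicates 1 to 4 labelled FcgRIIB-/-. In this sum the WT mice differed from each other several-fold, whereas the mice labelled FcgRIIB-/- lay close together. The mean was 2554 ± 1752 CPM (SD, n = 5) in WT and 274 ± 4.89 CPM (SD, n = 4) in FcgRIIB-/-, 9.33-fold apart, or 6.57-fold without WT replicate 5. Parts of the sum were less even in FcgRIIB-/-, where the Sprr2 genes ran from 18.4 to 39.0 CPM and the Lce1 genes from 0.381 to 1.62 CPM. In bulk tissue, fewer cornifying cells and less RNA of these genes per cell cannot be told apart.

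**Figure D1:**
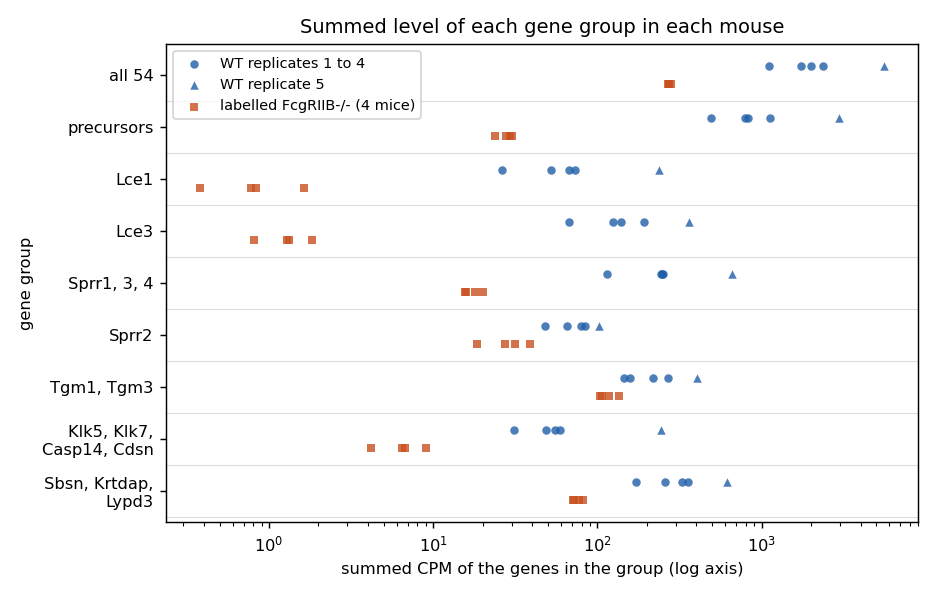
Summed level of each gene group in each mouse, in CPM on a log axis, with a circle for each of WT replicates 1 to 4, a triangle for WT replicate 5 and a square for each of the 4 mice labelled FcgRIIB-/-. The groups are farthest apart for the Lce1 and Lce3 genes and closest for the Sprr2 genes and the transglutaminases, and WT replicate 5 is the highest mouse in every group.

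Among the precursors encoded by single genes, Rptn, which encodes repetin, a fused S100-type protein of the envelope, had 429.9, 281, 634, 389 and 1738 CPM in WT and 4.77, 7.67, 6.35 and 6.54 CPM in FcgRIIB-/-. Even the lowest WT mouse was far above the highest mouse labelled FcgRIIB-/-. The means were 694 ± 597 CPM (SD, n = 5) and 6.33 ± 1.20 CPM (SD, n = 4), a log2 fold change of -6.78 (SE 0.63, adjusted p = 1.20e-04, edgeR), or -6.08 without WT replicate 5. Lor encodes loricrin, the glycine-rich protein that makes up much of the envelope of the epidermis. It had 282, 144, 367, 273 and 815 CPM in WT and 2.66, 3.47, 3.39 and 4.51 CPM in FcgRIIB-/-, a log2 fold change of -6.75 (SE 0.54, adjusted p = 7.65e-05, edgeR) or -6.24 without WT replicate 5. Crct1, a cysteine-rich gene of the same locus, had 77.6, 38.5, 98.6, 76 and 191 CPM in WT and 2.49, 2.26, 2.29 and 1.82 CPM in FcgRIIB-/-, a log2 fold change of -5.43.

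Filaggrin-type genes were lower as well, with a wider spread among WT mice. Hrnr, for hornerin, had 21.3, 13.6, 19, 28.7 and 185 CPM in WT and 0.736, 0.508, 0.381 and 0.304 CPM in FcgRIIB-/-. WT replicate 5 was several times above each of the other WT mice, and all 5 were above every mouse labelled FcgRIIB-/-. The log2 fold change of Hrnr was -6.73 (SE 1.09, adjusted p = 0.00172, edgeR) and -5.34 without WT replicate 5. Flg encodes profilaggrin, the precursor of the protein that bundles keratin filaments, and it had 86, 31, 29, 326 and 484 counts in WT and 4, 0, 0 and 0 in FcgRIIB-/-. In CPM this was 3.12, 1.24, 1.12, 12 and 18.9 in WT, so that replicates 4 and 5 were high, and the log2 fold change was -7.27 (SE 1.37, adjusted p = 0.00341, edgeR). The same pair of WT mice was high in the keratin partners of the epidermal spinous layer, named here after their values were seen: Krt1 had 38.7, 10.4, 12.3, 148 and 275 CPM and Krt10 had 134, 63.7, 77.1, 378 and 1087 CPM in WT. A pseudogene, Rplp0-ps1, lies within the bounds of Flg, and Lce1a1, Lce6a, Tgm3, Lypd3 and Sbsn also share bounds with another annotated gene, from which their reads may not be told apart. Flg2 had at most 2 counts in any mouse and Ivl, the gene for involucrin, had 2, 1, 5, 1 and 4 counts in WT and 2, 2, 3 and 5 in FcgRIIB-/-, so that neither was tested and a difference in them was not detectable at this depth.

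Trichohyalin genes went the other way. Tchh, which encodes the matrix protein of the inner root sheath of hair and of tongue papillae, had 6.85, 8.23, 8.64, 7.16 and 7.26 CPM in WT and 10.9, 13.2, 13.7 and 12 CPM in FcgRIIB-/-. The groups did not overlap, and WT replicate 5 was within the range of the other WT mice. The log2 fold change was 0.71 (SE 0.11, adjusted p = 0.00156, edgeR), the same without WT replicate 5. Its neighbour Tchhl1, a trichohyalin-like gene, had 0.797, 1.48, 2.0, 1.17 and 0.781 CPM in WT and 2.03, 3.10, 3.05 and 2.43 CPM in FcgRIIB-/-, a log2 fold change of 1.08 (SE 0.29, adjusted p = 0.0170, edgeR). Its adjusted p rose to at most 0.0466 when any 1 mouse was left out.

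The Lce genes, whose short proteins are added to the envelope late, had as groups the largest fold differences in summed level. The sum of the single-gene precursors, which includes the higher Tchh, was 44.5-fold apart. Gene by gene, the median log2 fold change of the precursors (-6.73) was close to that of the Lce1 genes (-6.70). In the Lce1 group, 12 of 13 genes were tested and all 12 were lower (19.3% of all tested genes). Their log2 fold changes ran from -7.51 (Lce1k) to -5.59 (Lce1g). All 12 reached the count filter through the WT libraries alone, so they could hardly have been tested without a difference. The summed level of the Lce1 group was 66.7, 26.1, 73.1, 51.9 and 238 CPM in WT and 0.771, 0.832, 0.381 and 1.62 CPM in FcgRIIB-/-. The means were 101-fold apart, or 60.4-fold without WT replicate 5. The WT libraries thus ranged widely, and no library labelled FcgRIIB-/- came near the lowest of them. Of the 4 Lce1 genes with the highest levels, Lce1a2 had 173, 76, 257, 166 and 752 counts in WT and 3, 1, 0 and 5 in FcgRIIB-/-. Lce1a1 had 241, 69, 222, 185 and 693 counts in WT and 2, 3, 1 and 1 in FcgRIIB-/-. Both genes were at a handful of counts in the mice labelled FcgRIIB-/-. Lce1c had 220, 78, 253, 145 and 630 counts in WT and 2, 3, 0 and 4 in FcgRIIB-/-, and Lce1d had 180, 90, 195, 158 and 674 and 4, 0, 2 and 3. The remaining 8 tested Lce1 genes had between 23 and 584 counts in WT mice and at most 7 counts in any mouse labelled FcgRIIB-/-. Lce1m had at most 3 counts in a WT mouse and 0 in FcgRIIB-/-, and Lce6a had 0 counts in all 9 mice.

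In the Lce3 group all 6 genes were tested and lower (19.3% of all tested genes), with log2 fold changes from -8.43 (Lce3d) to -6.57 (Lce3f). Of these, Lce3b, Lce3d and Lce3e reached the count filter through the WT libraries alone. Lce3b had 37.4, 16.4, 49.1, 32.5 and 77.6 CPM in WT and 0.280, 0.323, 0.0847 and 0.253 CPM in FcgRIIB-/-, a log2 fold change of -7.47 (SE 0.59, adjusted p = 7.57e-05, edgeR). Lce3a had 31.1, 15.4, 37, 28.7 and 96 CPM in WT and 0.210, 0.0924, 0.254 and 0.507 CPM in FcgRIIB-/-. Every WT mouse was many times above every mouse labelled FcgRIIB-/- in both genes. Lce3f had 27.3, 12.3, 37.1, 25.8 and 67.7 CPM in WT and 0.315, 0.370, 0.297 and 0.456 CPM in FcgRIIB-/-, and Lce3c had 22.1, 9.95, 35.8, 17.6 and 55.7 and 0.140, 0.416, 0 and 0.203. The summed Lce3 level differed 135-fold, or 99.8-fold without WT replicate 5. Lce3d had a single count in all mice labelled FcgRIIB-/- against 701 in WT, a ratio per normalized library size of 499 with an exact 95% interval from 89.3 to 19745. Lce1k and Lce1l, with 2 counts each in FcgRIIB-/-, had ratios of 224 (from 61.6 to 1850.5) and 124 (from 33.9 to 1024), and Lce1h, with 3 counts, had 182 (from 62.1 to 886). These intervals cover counting error only.

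Neighbouring Lce genes are similar in sequence. Of the stretches of 75 bases, the read length, in their transcripts, between 6.15% (Lce3b) and 45.6% (Lce3f) also occurred in another gene in the Lce3 group, and between 0.936% and 13.5% for the tested genes of the Lce1 group, so the split of reads between these copies is uncertain. A division of reads among the genes of a group would not change its sum. Whether the shared stretches stay within a group was not examined. Because the handling of reads with several matches is not given, the sums may depend on it.

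**Figure D2:**
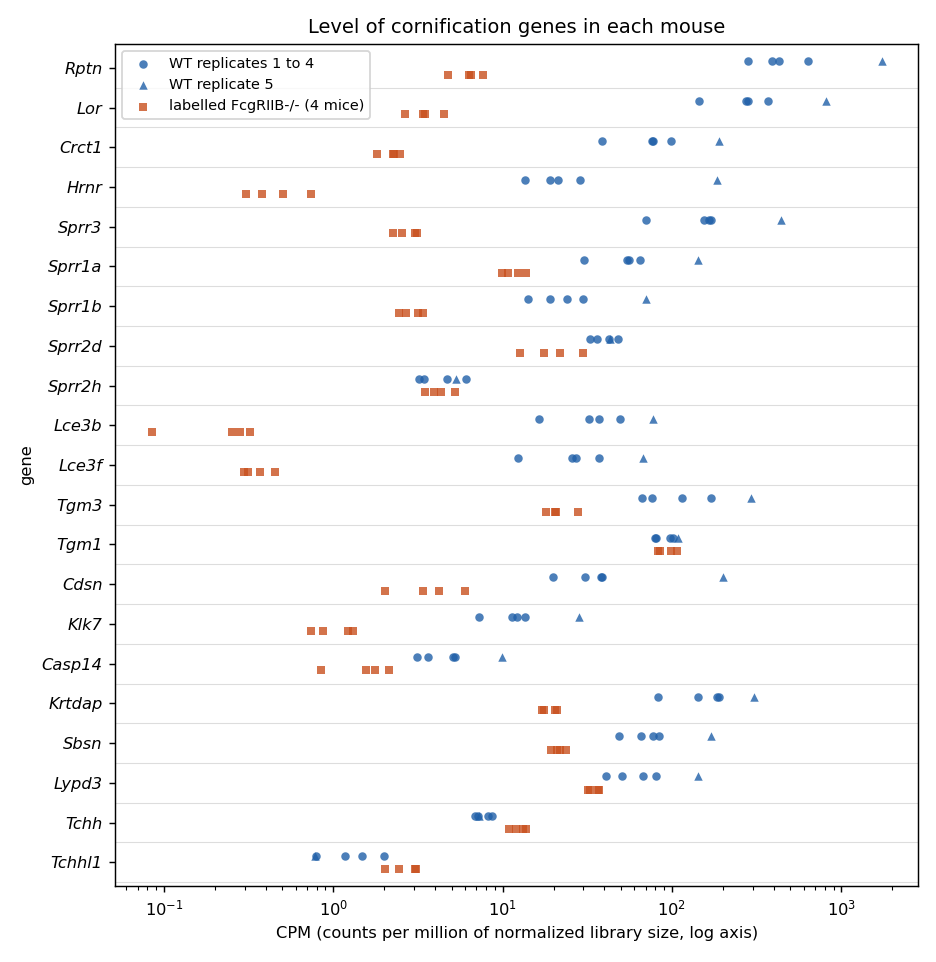
Level of 21 of the genes in each mouse, in CPM on a log axis, with circles for WT replicates 1 to 4, triangles for WT replicate 5 and squares for the 4 mice labelled FcgRIIB-/-. Rptn, Lor, Crct1, Hrnr and the Lce genes are separated by more than a factor of 10 between the groups, Tgm1 and Sprr2h overlap, and Tchh and Tchhl1 are higher in the mice labelled FcgRIIB-/-.

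The Sprr genes, whose proline-rich proteins bridge other envelope proteins, differed among themselves more than the Lce genes. Sprr3, typical of the oral and oesophageal lining, had 155, 70.3, 166, 171 and 443 CPM in WT and 3.12, 3.05, 2.25 and 2.53 CPM in FcgRIIB-/-, a log2 fold change of -6.19 (SE 0.55, adjusted p = 9.53e-05, edgeR). Sprr1a had 64.7, 30.3, 54.5, 55.9 and 142 CPM in WT and 13.8, 12.3, 9.91 and 10.8 CPM in FcgRIIB-/-, a log2 fold change of -2.57 (SE 0.39, adjusted p = 0.00123, edgeR). The mice labelled FcgRIIB-/- thus had a larger part of the mean WT level of Sprr1a than of Sprr3, a difference between the genes that was not tested. Sprr1b had 29.9, 14.2, 23.9, 19.1 and 70.2 CPM in WT and 3.15, 2.68, 3.39 and 2.43 CPM in FcgRIIB-/-, a log2 fold change of -3.42. Sprr4 had 1 count in 1 WT mouse.

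Of the 12 Sprr2 genes, 9 were tested, 8 were lower (19.3% of all tested genes) and Sprr2h did not pass. Sprr2d, the one with the highest level, had 42.5, 32.9, 48, 35.9 and 43.4 CPM in WT and 29.7, 17.7, 21.9 and 12.7 CPM in FcgRIIB-/-, a log2 fold change of -0.98 (SE 0.21, adjusted p = 0.00625, edgeR). With all 9 mice it was the only lower gene of the 42 that fell by less than a factor of 2, and WT replicate 5 was not its highest WT mouse. Sprr2e, Sprr2f, Sprr2g and the pseudogene Sprr2j-ps had log2 fold changes of -1.56, -1.73, -2.08 and -1.86. Larger differences were found for Sprr2k (-4.18), Sprr2i (-5.29) and Sprr2a3 (-6.13), each with at most 7 counts in any mouse labelled FcgRIIB-/-. Sprr2k, Sprr2i and Sprr2a3 reached the count filter through the WT libraries alone. Sprr2h, given in full after its values were seen, had 4.67, 3.21, 6.09, 3.45 and 5.35 CPM in WT and 4.31, 5.22, 3.94 and 3.50 CPM in FcgRIIB-/-. The groups overlapped, the log2 fold change was -0.10 (SE 0.21, adjusted p = 0.744, edgeR), and the 95% interval of the fold ran from 0.671 to 1.29. Sprr2a1 had 14, 0, 5, 9 and 21 counts in WT and Sprr2b had 4, 0, 3, 2 and 37, both with 0 in every mouse labelled FcgRIIB-/-, and Sprr2a2 had at most 1 count in a mouse. Of the transcript stretches of 75 bases, 94.3% of Sprr2a1, 94.7% of Sprr2a2 and 47.5% of Sprr2a3 occurred in another gene. These 3 thus cannot be separated with confidence. The stretches of Sprr2f, Sprr2h and Sprr2k occurred in the annotated transcripts of no other gene.

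The cross-linking enzymes were split. Tgm3, an epidermal transglutaminase, had 115, 76.1, 170.2, 66.7 and 294 CPM in WT and 20.3, 20.7, 18.2 and 28 CPM in FcgRIIB-/-, a log2 fold change of -2.73 (SE 0.42, adjusted p = 0.00141, edgeR) or -2.27 without WT replicate 5. Tgm1, the membrane-anchored transglutaminase of keratinocytes, had 102, 80.6, 97.4, 79.4 and 109 CPM in WT and 82.8, 85.4, 98.9 and 107 CPM in FcgRIIB-/-. These values overlapped throughout. The log2 fold change of Tgm1 was 0.00 (SE 0.11, adjusted p = 0.999, edgeR), and its 95% interval allowed a fold between 0.840 and 1.19. Its sign changed under several of the settings given in the closing section.

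All 4 genes of desquamation and proteolysis were lower (19.3% of all tested genes). Cdsn encodes corneodesmosin, which glues corneocytes together, and had 38.9, 19.9, 38.1, 30.8 and 200.3 CPM in WT and 3.40, 4.21, 2.03 and 6.03 CPM in FcgRIIB-/-. Most of its WT mean came from replicate 5, and the log2 fold change of -4.08 (SE 0.75, adjusted p = 0.00304, edgeR) became -3.02 without that mouse. Klk7, a protease that cleaves corneodesmosin, had 13.5, 7.30, 12.1, 11.4 and 28.3 CPM in WT and 0.876, 0.739, 1.31 and 1.22 CPM in FcgRIIB-/-, and Klk5, a protease that activates it, had 47, 21, 26, 37 and 107 counts in WT and 1, 1, 0 and 4 in FcgRIIB-/-. Their log2 fold changes were -3.81 and -4.70. Klk5 reached the count filter through the WT libraries alone. Casp14, a caspase of filaggrin breakdown, had 5.22, 3.13, 3.62, 5.10 and 9.99 CPM in WT and 2.14, 1.76, 0.847 and 1.57 CPM in FcgRIIB-/-, with a log2 fold change of -1.77 (SE 0.38, adjusted p = 0.00575, edgeR).

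All 3 secreted or surface products of suprabasal cells were lower too (19.3% of all tested genes). Krtdap, a secreted protein of differentiating keratinocytes, had 189, 83.1, 185, 142 and 306 CPM in WT and 20.4, 21, 17.6 and 17.1 CPM in FcgRIIB-/-, a log2 fold change of -3.25 (SE 0.32, adjusted p = 1.76e-04, edgeR). Sbsn, for suprabasin, had 84.4, 48.5, 77.5, 65.3 and 170.4 CPM in WT and 19.4, 23.7, 21 and 21.8 CPM in FcgRIIB-/-, a log2 fold change of -2.06. In both genes WT replicate 2 was the lowest WT mouse and still above every mouse labelled FcgRIIB-/-. Lypd3, a lipid-anchored surface protein of suprabasal keratinocytes, had 80.6, 41.1, 67.3, 50.9 and 142 CPM in WT and 37, 36.6, 33 and 32.1 CPM in FcgRIIB-/-. The groups of Lypd3 almost touched, and the log2 fold change was -1.14 (SE 0.30, adjusted p = 0.0168, edgeR) or -0.77 without WT replicate 5.

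The make-up of this set of transcripts differed between the groups. Rptn gave between 21.6% and 31.2% of the counts of the 54 genes in WT mice and between 1.76% and 2.82% in mice labelled FcgRIIB-/-, and Lor between 13% and 15.8% against 0.981% to 1.61%. Tgm1 gave between 1.95% and 7.30% in WT and between 30.5% and 38.2% in FcgRIIB-/-. The shares of Krtdap overlapped, between 5.48% and 9.52% in WT and between 6.10% and 7.71% in FcgRIIB-/-. Per length of transcript, as CPM per kilobase, the mean WT levels were highest for Krtdap (385), Lor (211), Rptn (167), Sprr3 (164) and Crct1 (122). In FcgRIIB-/- the highest were Krtdap (40.5), Tgm1 (31.1), Sprr2d (30.1), Lypd3 (21) and Sprr1a (14.5) CPM per kilobase. A length was at hand for 52 of the 54 genes.

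Of the 54 genes, 45 lay on chromosome 3 between 92080271 and 93471980 of GRCm38.p6 (mm10), from Lor to Tchhl1, and 9 lay on chromosomes 2, 7, 10, 14 and 17. The RefSeq annotation has 71 genes in this interval, of which 52 were in the count table. The 7 that are not in the set included 3 tested genes. Kprp, a keratinocyte proline-rich gene, had 350, 133, 393, 258 and 1904 counts in WT and 3, 4, 1 and 8 in FcgRIIB-/-, with a log2 fold change of -7.04 (adjusted p = 0.00144, edgeR). Crnn, for cornulin, had 33, 61, 45, 175 and 975 counts in WT and 10, 3, 7 and 0 in FcgRIIB-/-, a log2 fold change of -5.53 (adjusted p = 0.0103, edgeR), and WT replicate 5 held most of its WT counts. Prr9 did not pass, at 1.15 (adjusted p = 0.0782, edgeR). These 3 genes were named because they fall in the interval.

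The lower genes did not fill the interval evenly. Sprr2h, without a detected difference, lay at chr3:92385685-92387324 between Sprr2g at chr3:92373915-92375229 and Sprr2i at chr3:92407991-92409271, both lower, and Tchh at chr3:93442330-93449077 was the gene of the set after Rptn at chr3:93393699-93399442 along the chromosome. The S100 genes on both flanks, which encode calcium-binding proteins, were mixed. Of 13 S100 genes, 3 were lower (19.3% of all tested genes), 5 were higher (14%) and 5 did not pass, with a median log2 fold change of 0.34. S100a8 and S100a9, which are also neutrophil genes, were lower (log2 fold changes of -2.19 and -2.44), while S100a6 was higher (0.68).

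**Figure D3:**
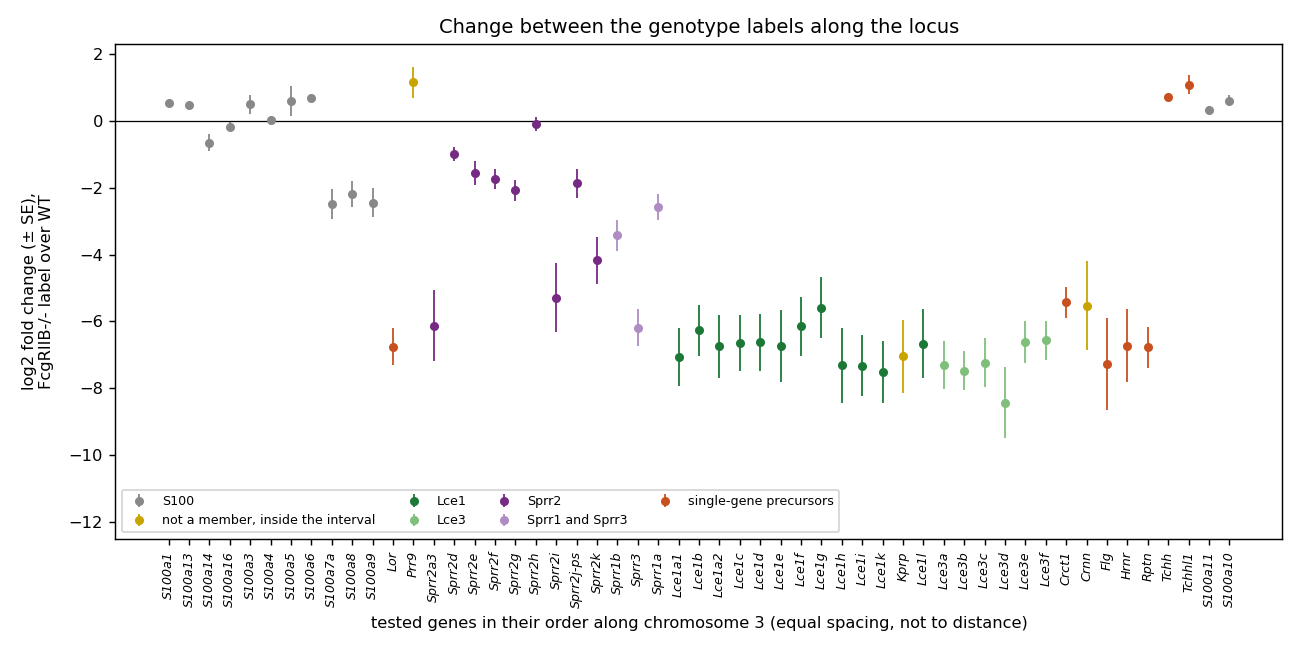
Log2 fold change (FcgRIIB-/- label over WT) with its SE for the tested genes in their order along chromosome 3, equally spaced and coloured by gene family. The Lce genes lie near or below -6, the Sprr2 genes spread from -6.13 to -0.10, and the flanking S100 genes and the trichohyalin pair lie mostly above 0.

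The proximal promoters were examined because genes of this locus moved in different directions. RefSeq promoter sequences of GRCm38.p6, from 250 bases before to 50 bases after the start of the gene, were at hand for 50 of the 54 genes (52 promoters), with no entry for Sprr2g, Sprr2j-ps, Lce1f and Crct1. TATAAA occurred on either strand in 40.4% of them and in 13.6% of all 32851 promoters in that table. TGANTCA, the AP-1 motif, occurred in 32.7% against 7.81%, AACCNGGTT, a grainyhead-like motif, in 0% against 0.271%, and GGGCGG, the GC box, in 7.69% against 35.7%. GGGCGG was found in Sprr2h, Lypd3, Klk7 and in a promoter of Tgm1 but not in its other promoter. Lypd3 and Klk7 were lower, whereas Sprr2h and Tgm1 had no detected difference. Among promoters of the lower genes TATAAA occurred in 41.0%, TGANTCA in 30.8% and GGGCGG in 5.13%. Similar gene copies, such as the Sprr2 genes, were counted as separate promoters, and TGANTCA was found in no Lce promoter at hand. A link between these motifs and the differences was not tested. Promoters of 5 genes are printed 5′ to 3′ with the motifs on either strand in capitals, namely Lor and Rptn as lower precursors, the neighbours Sprr2h and Sprr2i, which differed in their response, and Tchh, which was higher.
Lor, chr3:92083093-92083392, minus strand: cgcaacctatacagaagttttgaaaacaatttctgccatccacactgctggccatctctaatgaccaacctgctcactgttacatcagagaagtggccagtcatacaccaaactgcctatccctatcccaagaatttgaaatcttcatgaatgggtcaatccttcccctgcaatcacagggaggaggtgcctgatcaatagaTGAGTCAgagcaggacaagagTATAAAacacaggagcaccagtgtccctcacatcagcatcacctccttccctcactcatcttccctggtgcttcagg
Rptn, chr3:93393449-93393748, plus strand: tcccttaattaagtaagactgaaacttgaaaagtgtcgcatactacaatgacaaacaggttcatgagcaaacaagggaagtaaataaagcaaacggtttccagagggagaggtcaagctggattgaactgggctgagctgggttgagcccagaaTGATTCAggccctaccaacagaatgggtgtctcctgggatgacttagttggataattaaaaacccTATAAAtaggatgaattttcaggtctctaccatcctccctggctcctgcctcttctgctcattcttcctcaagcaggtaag
Sprr2i, chr3:92407741-92408040, plus strand: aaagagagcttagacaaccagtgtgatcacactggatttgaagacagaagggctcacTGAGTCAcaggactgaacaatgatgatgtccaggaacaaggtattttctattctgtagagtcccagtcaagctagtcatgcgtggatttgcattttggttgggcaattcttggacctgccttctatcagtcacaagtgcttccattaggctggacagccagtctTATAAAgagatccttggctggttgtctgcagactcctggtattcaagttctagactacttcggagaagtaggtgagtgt
Sprr2h, chr3:92385435-92385734, plus strand: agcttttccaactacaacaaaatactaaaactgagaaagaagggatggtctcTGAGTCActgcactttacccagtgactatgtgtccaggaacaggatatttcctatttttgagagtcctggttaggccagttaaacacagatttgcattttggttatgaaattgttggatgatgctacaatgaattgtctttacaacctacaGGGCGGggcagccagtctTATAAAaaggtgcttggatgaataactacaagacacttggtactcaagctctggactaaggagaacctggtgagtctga
Tchh, chr3:93442080-93442379, plus strand: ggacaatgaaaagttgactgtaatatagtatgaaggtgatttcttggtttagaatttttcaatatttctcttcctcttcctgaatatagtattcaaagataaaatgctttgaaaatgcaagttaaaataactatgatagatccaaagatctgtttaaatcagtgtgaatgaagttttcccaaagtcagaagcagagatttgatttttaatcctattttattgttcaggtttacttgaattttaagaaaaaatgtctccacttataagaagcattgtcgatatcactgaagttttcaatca
The Lor, Rptn, Sprr2i and Sprr2h windows hold TATAAA and TGANTCA, only the Sprr2h window of these 5 holds GGGCGG, and the Tchh window holds none of the 4 motifs searched. These matches describe letters and not bound sites.

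Other genes of cornification that are not in the set moved in the same direction. Of 16 such genes, 13 were lower, 1 was higher and 2 did not pass, with a median log2 fold change of -2.41. For this list and those that follow, the shares over all tested genes were 19.3% lower and 14% higher. Their summed level was between 622.9 CPM and 2613 CPM in WT, with the highest sum in replicate 5, and between 466 and 545 CPM in FcgRIIB-/-. The 3 with the highest levels were Dmkn, for the secreted dermokine, Spink5, a kallikrein inhibitor, and Ppl, for the envelope scaffold periplakin. Their log2 fold changes were -0.85 (adjusted p = 0.0322, edgeR), -1.31 (adjusted p = 0.0293, edgeR) and -1.56 (adjusted p = 0.00732, edgeR). Spink5 no longer passed without WT replicate 5 (adjusted p = 0.0511, edgeR) and, like Dmkn, did not pass when any of several other single mice was left out (adjusted p of at most 0.0781 for Spink5 and 0.0739 for Dmkn, edgeR).

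Keratins of differentiating layers fell together with the envelope genes, and keratins of the basal layer did not. Of 10 differentiation keratins, 9 were tested and all 9 were lower, with a median log2 fold change of -4.80. Krt13 and Krt4, the keratin pair of the oral lining, had 3613, 1321, 3963, 1941 and 7181 CPM and 2409.7, 1066, 3110.0, 1680.2 and 5713 CPM in WT. In FcgRIIB-/- they had 125, 149, 31.4 and 54.9 CPM and 70.4, 85.7, 19.9 and 44.4 CPM, log2 fold changes of -5.32 and -5.67. Krt6a, a keratin of the gingiva, tongue and hair follicle, changed by -1.26 (adjusted p = 0.0300, edgeR, and at most 0.0813 with 1 mouse left out). Among 8 basal keratinocyte genes none was lower, 4 were higher (2 without scaling beyond the total count) and 4 did not pass, with a median log2 fold change of 0.31. Krt5 had 1855, 1299, 1784, 1389.9 and 1763 CPM in WT and 2199, 2243, 2059 and 1988 CPM in FcgRIIB-/- (0.39, adjusted p = 0.0356, edgeR, and at most 0.0863 with 1 mouse left out), and Krt14 had 2602, 1551, 2220.4, 2039.6 and 2938 and 2752, 2925, 2797 and 2220.5 (0.24, adjusted p = 0.320, edgeR). The summed level of the basal genes was between 3874 and 5763 CPM in WT and between 5509 and 6701 CPM in FcgRIIB-/-. Col17a1, a collagen of the hemidesmosome, was higher (0.36, adjusted p = 0.0150, edgeR).

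Of 12 transcription factors of epidermal differentiation, 4 were lower (19.3% of all tested genes), 1 was higher (14%) and 7 did not pass. Among those with the highest levels, Maf and Klf4 had log2 fold changes of 0.29 and -0.43 and did not pass. The 4 lower ones, named after their values were seen, were Hopx (-2.18), Grhl3 (-2.10), Ovol1 (-1.71) and Grhl1 (-1.11). Grhl3, a grainyhead-like factor of late epidermal differentiation, had 16.5, 9.15, 15.1, 11 and 32.7 CPM in WT and 4.63, 3.79, 3.98 and 3.29 CPM in FcgRIIB-/-. Each of the 4 was highest in WT replicate 5, and the groups did not overlap in Hopx, Grhl3 and Ovol1 but overlapped in Grhl1. The higher one was Cebpb (0.63, adjusted p = 0.0118, edgeR).

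**Figure D4:**
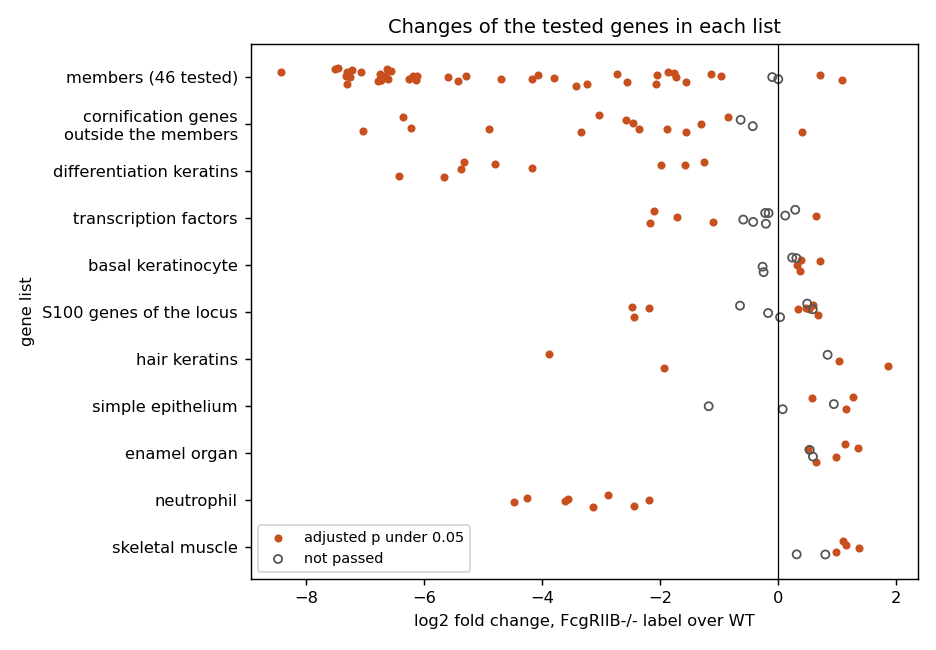
Log2 fold change (FcgRIIB-/- label over WT) of each tested gene of the set, named members, and of 10 other gene lists, with filled points for an adjusted p under 0.05 and open points for genes that did not pass. The other cornification genes, with 1 exception, the differentiation keratins and the neutrophil genes lie to the left of 0, and the enamel organ and skeletal muscle genes to the right.

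Markers of other cell types in the mandible moved with the labels too. All 8 neutrophil genes were lower, with summed levels between 1107 and 3345 CPM in WT, highest in replicate 5, and between 137 and 406 CPM in FcgRIIB-/-. Of 7 enamel organ genes, 5 were higher (3 without scaling beyond the total count) and 2 did not pass, with sums between 9528 CPM, in WT replicate 5, and 25812 CPM in WT and between 29154 and 50412 CPM in FcgRIIB-/-. Of 6 skeletal muscle genes, 4 were higher and 2 did not pass, with sums between 4729 and 11128 CPM in WT and between 12630 and 21522 CPM in FcgRIIB-/-. The leading genes were Ngp (-4.48) for neutrophils, Amelx (1.34), Ambn (1.13) and Odam (0.50, adjusted p of at most 0.0913 with 1 mouse left out, edgeR) for the enamel organ, and Acta1 (0.80, adjusted p = 0.0510, edgeR), Tnnt3 (1.14) and Ckm (0.98, adjusted p of at most 0.0663 with 1 mouse left out, edgeR) for muscle. Simple epithelium and gland genes gave 3 higher and 3 not passed of 6 tested, with sums between 37.8 and 49.0 CPM in WT and between 52.7 and 145 CPM in FcgRIIB-/-. Epcam (0.57) and Krt18 (1.14) were higher, and Muc19, a mucin of salivary gland, was at 57.5 CPM in FcgRIIB-/- replicate 4 and at most 0.468 CPM elsewhere. The part of these cell types in the lower level of cornification genes was not tested.

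Hair follicle genes were examined because trichohyalin is made there. Of 20 hair and inner root sheath keratins, 19 were in the table and 5 were tested. Their summed level was between 8.04 and 13.2 CPM in WT and between 12.1 and 15.0 CPM in FcgRIIB-/-. Of the 5 tested keratins, 2 were higher, 2 were lower and 1 did not pass. Krt27 and Krt73, inner root sheath keratins, were higher (log2 fold changes of 1.04 and 1.86), and Krt32 was lower (-3.88). The groups overlapped in Krt25, which did not pass (0.84, adjusted p = 0.315, edgeR). Krt27 had 1.78, 5.78, 6.21, 6.42 and 2.69 CPM in WT and 10.2, 6.75, 10.6 and 10 CPM in FcgRIIB-/-, and it no longer passed without WT replicate 5 (adjusted p = 0.0608, edgeR) or without FcgRIIB-/- replicate 1, 3 or 4 (at most 0.0879). Krt73 had 0.797, 0.401, 0.732, 0.624 and 0.312 CPM in WT and 2.21, 3.05, 1.74 and 1.42 CPM in FcgRIIB-/-, without overlap. Krt84 was lower as well (-1.93, adjusted p = 0.0296, edgeR) but did not pass without FcgRIIB-/- replicate 2 or 4 (adjusted p of at most 0.0744), and 14 of the keratins in the table were too low to be tested.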

How the data were processed

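Single-end reads of 75 bases were cleaned with Trim Galore and aligned by the authors to mm10 (HISAT), and featureCounts assigned them to genes. The deposited values are raw counts, not normalized. The annotation, strand setting and handling of reads with several matches are not given in the sources used here. Samples were grouped by their genotype labels, and 1 count column that matched no sample was not used.

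The rest was computed from the deposited counts in R 4.3.3 with edgeR 4.0.16: filterByExpr (minimum count 10), TMM, the quasi-likelihood test of genotype without covariates, and Benjamini-Hochberg adjustment over all tested genes at 0.05. Each SE was the size of the log2 fold change divided by the root of the F statistic. On simulated counts of this comparison, 200 genes had a true log2 difference of size 1. There edgeR recovered 73.5% (16202 genes) with 5.77% false calls, and DESeq2 79.5% (16329 genes) with 18.9% false calls. Changes in as many genes as were called here, or as large as those of the Lce genes, were not simulated. Totals of 21453880 to 28991631 counts per mouse set the error of counting, but the SE also holds the spread among mice. For Lor it was 0.54 with all mice and 0.31 without WT replicate 5. DESeq2 1.42.0, 2 other scalings, 2 other filters, a robust fit, a replicate block and leaving out each mouse were alternatives. Positions and promoters came from RefSeq GRCm38.p6 and transcript lengths from GENCODE.

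The genes and lists were chosen with earlier results of these data known. Values per mouse were given for tested genes outside the Lce and Sprr families with a mean of at least 1 CPM, and for the 4 highest genes of each of the Lce1, Lce3 and Sprr families. The 3 highest genes of each other list were named, except 1 that is not reported here. A planned description of protein composition was not made.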

Additional observations from a re-analysis of the deposited data

Results flagged for a closer look

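In 26 of 96 groups of mice examined, the highest or lowest mouse stood further from the rest than Dixon's 95% limit. The groups were formed gene by gene from the same mice and are not independent, so this count has no chance rate beside it. A gene with counts in only 1 mouse of a group, such as Lce3d or Flg in FcgRIIB-/-, exceeds the limit whatever its count. WT replicate 5 was the highest mouse in 20 of the 26 groups. In this mouse, Rptn was at 1738 CPM against 281 to 634 CPM in the other WT mice, Sprr3 at 443 CPM against 70.3 to 171 CPM, and Cdsn at 200.3 CPM against 19.9 to 38.9 CPM. Hrnr was at 185 CPM, Lce3a at 96.0 CPM and Sprr1b at 70.2 CPM, and the summed level of the 54 genes was 5577 CPM.

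The Lce1 genes in WT replicate 5 included Lce1a2 at 29.4, Lce1a1 at 27.1, Lce1d at 26.3, Lce1i at 19.9, Lce1g at 19.8, Lce1h at 17.5, Lce1e at 14.6, Lce1k at 11.9 and Lce1l at 7.57 CPM. Genes at low levels that stood apart in the same mouse were Lce3d at 14.3, Sprr2i at 6.09, Klk5 at 4.18 and Sprr2j-ps at 2.69 CPM.

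Among mice labelled FcgRIIB-/-, replicate 4 had the highest Lce1g (0.355 CPM), the highest summed level of the 54 genes (281 CPM against 270.6 to 272 CPM) and the highest Fcgr2b (32.1 CPM). Replicate 1 was the only mouse of that group with counts of Lce3d (0.0350 CPM, 1 count) and of Flg (0.140 CPM, 4 counts). In WT, replicate 2 had the highest Fcgr2b (38.3 CPM against 17.0 to 23.1 CPM). What sets these mice apart was not tested.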

How the results depend on the processing

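The count of lower genes of the set was between 41 and 43 and that of higher genes was 2 under the 16 other settings, and 41 or 42 of the 42 remained lower in each setting. Sprr2i was too low to be tested without WT replicate 1, 3, 4 or 5. The median log2 fold change lay between -6.25 and -5.16. Hrnr has no adjusted p in DESeq2, which set it to missing, and Sprr2a1 was called lower there instead (42 lower and 2 higher of the set, 17.1% and 14.1% of all genes tested). The 2 genes without a detected difference changed sign in some settings. Tgm1 was at -0.0765 without scaling beyond the total count and at -0.0061 without a filter on low counts, and with 1 mouse left out it lay between -0.0710 and 0.0829. Sprr2h lay between -0.215 and 0.0380 then, above 0 only without WT replicate 3. Without scaling, 2 basal keratinocyte, 3 enamel organ and 1 hair keratin gene were higher in place of 4, 5 and 2, and 3781 genes were lower and 1309 higher of all tested, against 3144 and 2289. Fcgr2b, between 0.13 and 0.46 when 1 mouse was left out, passed as higher only without WT replicate 2 (adjusted p = 0.0131, edgeR).

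Mice with the same replicate number are different animals, and their deviations from the group means correlated between -0.11 and 0.10. With a replicate block, 42 genes of the set were lower and 2 higher with a median log2 fold change of -5.16, and 2410 genes were lower and 1594 higher of all tested. Of the named genes of other lists, Dmkn, Spink5, Krt6a, Krt5, Odam, Krt27, Krt84 and Ckm lost their call when some mouse was left out, and Acta1 gained it in some settings. Few counts in FcgRIIB-/- limit the precision of Lce folds.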
